A study of Mus musculus with 9 samples.

Results

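The Serpin genes are the rows of the UMI table whose symbol starts with Serpin, 44 of 32195 genes. Serpins are single-use inhibitors: a protease cuts the exposed reactive loop of the inhibitor and is trapped on it. Most members of clades A, C, D, E, F, G and I are secreted into blood or luminal fluid, whereas clade B members lack a classical signal peptide and mostly stay in the cell. A few members have lost inhibition and act as hormone carriers, a collagen chaperone or signalling proteins. In the epididymis, the duct in which sperm mature and are stored, secreted inhibitors are a known part of the luminal fluid that bathes sperm.

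Single cells were profiled from untreated wild-type C57BL/6 mice (substrain C57BL/6J in the series' design) in the caput, corpus and cauda, the head, body and tail of the duct. One pool was taken at 42 days (P42) and a pair of pools at 56 days (P56, replicates 1 and 2), and each pool joined the epididymides of 5 mice, so that values describe pools rather than animals. The 9 libraries held 44869 cell barcodes, of which 40726 were kept, 3946 to 4850 per library. Unique molecular identifiers (UMIs), which count each captured transcript once, came to 258284304 in the kept cells, and 18450232 to 40681122 per library. Levels below are CPM, the UMIs of a gene scaled to a total of 1e6 UMIs of the same cells, always in the order P42, P56 replicate 1 and P56 replicate 2. Levels of different genes were not ranked, since they were not scaled by length. P42 had a single pool, so age and pool cannot be told apart.

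The P42 cauda library stood apart. The summed level of 7 of 7 fibroblast markers was 42562 CPM there and 403 to 7747 CPM in the other 8 libraries. It held 832 cells gated as principal cells, against 1404 to 2900 elsewhere. Cell classes were gated by markers, and 7228 cells stayed ungated and 1822 carried markers of more than 1 class. All gated classes but principal cells had most of their markers highest in their own cells. Of 25 principal cell markers 9 were highest in principal cells in most libraries, and their summed level in the other classes had medians between 33.5% and 81.3% of that in principal cells. Principal cell markers were thus read in every class. Pairs of libraries shared 0 to 26 barcodes (median 5.5 over 36 pairs).

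The members lie on 10 chromosomes (GRCm38, positions from GENCODE M21). Chromosome 12 carries 17 of them, chr12:103614786 being the start of the first and 104414329 the end of the last, and these took 69.9% of all Serpin UMIs. Chromosome 13 carries 10 clade B members and chromosome 1 carries 8 members. Serpina16 (chr12:103668808-103676139) and Serpina1f (chr12:103688044-103695529) are neighbours on the minus strand, as are Serpinf2 (chr11:75431732-75439591) and Serpinf1 (chr11:75409769-75422701). Serpine2 lies at chr1:79794197-79861180.

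The promoters of 4 members are shown, since these members carry the segment patterns described first and were called between segments in principal cells and in 4 other classes. They are the 250 bases before the RefSeq start (GRCm38.p6, minus strand of chr12, chr12, chr1 and chr11, in the order below), with capitals for the hexamer TGTTCT or its reverse complement AGAACA, which is part of the androgen receptor's element.
Serpina16, chr12:103676763-103677012: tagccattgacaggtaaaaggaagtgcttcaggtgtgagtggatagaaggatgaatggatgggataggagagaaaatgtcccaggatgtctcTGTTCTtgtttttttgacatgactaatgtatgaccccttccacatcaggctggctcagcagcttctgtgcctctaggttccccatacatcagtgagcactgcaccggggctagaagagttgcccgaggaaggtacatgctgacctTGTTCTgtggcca
Serpina1f, chr12:103695530-103695779: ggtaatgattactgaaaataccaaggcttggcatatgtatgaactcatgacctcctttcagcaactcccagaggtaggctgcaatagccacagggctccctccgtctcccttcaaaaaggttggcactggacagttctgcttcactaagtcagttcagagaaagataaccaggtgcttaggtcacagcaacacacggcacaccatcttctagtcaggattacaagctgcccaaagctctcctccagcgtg
Serpine2, chr1:79858666-79858915: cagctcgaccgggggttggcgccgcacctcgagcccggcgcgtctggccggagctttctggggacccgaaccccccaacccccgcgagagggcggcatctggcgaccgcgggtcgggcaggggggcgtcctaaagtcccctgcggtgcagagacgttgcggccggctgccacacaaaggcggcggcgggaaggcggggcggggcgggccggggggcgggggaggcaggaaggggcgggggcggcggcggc
Serpinf2, chr11:75439502-75439751: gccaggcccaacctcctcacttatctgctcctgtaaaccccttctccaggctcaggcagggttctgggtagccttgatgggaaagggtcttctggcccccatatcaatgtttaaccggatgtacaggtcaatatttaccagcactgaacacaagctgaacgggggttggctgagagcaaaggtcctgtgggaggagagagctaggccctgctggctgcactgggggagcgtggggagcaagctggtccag
The hexamer occurred at 2 places before Serpina16 and at 0 places before the others. It occurred in 5284 of 32851 promoters in the RefSeq table (16.1%) and in 13 of the 43 promoters of the 36 members that the table holds. The RefSeq start lies 623 bases upstream of the GENCODE M21 start for Serpina16, 2515 bases downstream of it for Serpine2, 90 bases downstream for Serpinf2 and at 0 bases from it for Serpina1f. GC content was 78.8% before Serpine2 and 49.2% to 57.2% before the others. A match of letters is a description and not a binding site.

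Members grouped as secreted inhibitors held most Serpin UMIs. Neither secretion nor inhibition was measured for any member. The 24 members of that group held 86.5% of 872200 Serpin UMIs, 15 of the 16 clade B members 7.99% and the 5 members that do not inhibit proteases, with the clade B gene Serpinb5 among them, 5.51%. All 16 clade B members together held 8.58%. Serpina1f, a relative of alpha-1-antitrypsin, took 39.4% and Serpina16, a further clade A gene, 30.1%. By the rule on level or calls, 25 members were selected for description. The other 19 had 2 to 168 UMIs each, 410 in all, or 0.047% of Serpin UMIs.

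Between segments, the question was which Serpin genes differ along the duct. In principal cells, the absorptive and secretory cells that line the duct, 11 members were called: 7 were highest in the cauda, 2 in the corpus and 2 in the caput. Of the 44 members 23 passed the filter on low counts. Genes were called where the adjusted p of edgeR's F test was below 0.05 and the highest and lowest segment differed by 1 or more on the log2 scale, and 35.1% of all genes tested in principal cells were called. Of all genes, 9.91% were called as highest in the cauda, 10.4% in the corpus and 14.8% in the caput. The median log2 fold change of cauda over caput was 1.57 over the 23 members and 0.01 over all 16620 genes tested. The P42 cauda library enters these medians, which were not worked out without it. Without P56 replicate 1, the count of called members fell to 6 (20.5% of all genes), and without the P42 cauda library it was 12 (40.7% of all genes). Without the pool as a block in the fit it was 7 (32.4% of all genes).

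Serpina16 was low in the caput and high in the corpus and cauda. In principal cells it was at 32.9, 21.2 and 29.4 CPM in caput libraries, 1511, 1746 and 2062 CPM in corpus libraries and 1496, 2421 and 2485 CPM in cauda libraries. The caput did not overlap the other segments, and the corpus and cauda overlapped. The log2 fold change was 6.00 ± 0.39 for corpus over caput and 0.37 ± 0.32 for cauda over corpus, the second not passing the test (adjusted p = 1.54e-05 over the 3 segments).

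Serpina1f was already present in the caput and rose in steps. Its levels in principal cells were 386, 338 and 471 CPM in caput libraries, 1074, 1168 and 1211 CPM in corpus libraries and 2004, 3493 and 3959 CPM in cauda libraries, with no overlap between any pair of segments. The log2 fold change was 1.57 ± 0.30 for corpus over caput and 1.52 ± 0.30 for cauda over corpus (adjusted p = 0.00021).

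Serpine2 (protease nexin 1), an inhibitor of thrombin and of plasminogen activators, was highest in the cauda in principal cells. It was at 11.7, 6.69 and 7.73 CPM in caput libraries, 35.3, 10.1 and 28.1 CPM in corpus libraries and 735, 961 and 1088 CPM in cauda libraries. Every cauda library was above every other library, and the P42 cauda was the lowest cauda library. The log2 fold change of cauda over corpus was 5.50 ± 0.49 (adjusted p = 1.39e-05), and without the P42 cauda library it was 5.99 ± 0.32.

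Serpinf2 (alpha-2-antiplasmin), the main inhibitor of plasmin, ran the other way. Its levels in principal cells were 69.8, 46.2 and 36.4 CPM in caput libraries, 0.526, 0.653 and 0.184 CPM in corpus libraries and 0.313, 0 and 0.0523 CPM in cauda libraries. The log2 fold change of corpus over caput was -6.70 ± 0.33 (adjusted p = 1.35e-06), and only the caput libraries rose above 1 CPM. Its neighbour Serpinf1 was not called between segments in principal cells (log2 fold change of cauda over caput 1.87 ± 0.75, adjusted p = 0.0896).

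A pair of low genes was highest in the corpus. Serpinb12, a clade B inhibitor, was at 0, 0 and 0 CPM in caput libraries, 8.29, 7.54 and 10.2 CPM in corpus libraries and 1.25, 4.03 and 4.13 CPM in cauda libraries. With 0 UMIs in caput principal cells, its level was at least 125-fold higher in the corpus and at least 55.4-fold higher in the cauda, set against 3 counts over the caput libraries (adjusted p = 0.000266). Serpina7, the thyroxine-binding globulin, was at 0.79, 1.9 and 1.96 CPM in the corpus and 0, 0.376 and 0.261 CPM in the cauda. It had 70 UMIs in corpus and 0 in caput principal cells, at least 24.6-fold higher (adjusted p = 0.00178).

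Serpinb8, a clade B inhibitor of furin, was called as highest in the caput. Its levels in principal cells were 4.44, 2.53 and 2.45 CPM in caput libraries, 1.18, 0.178 and 0.429 CPM in corpus libraries and 4.07, 0.322 and 0.837 CPM in cauda libraries, so that the P42 cauda overlapped the caput. The log2 fold change of corpus over caput was -2.64 ± 0.49 (adjusted p = 0.00606). The call was lost without P56 replicate 1 and without P56 replicate 2.

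**Figure D1:**
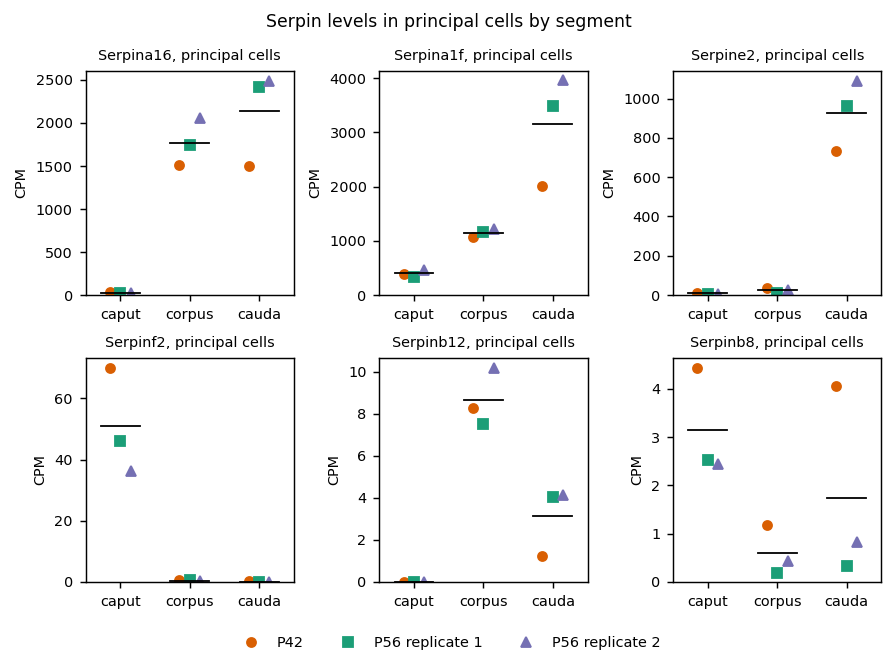
CPM of 6 Serpin genes in principal cells (y axis) by segment (x axis), with 1 symbol per library and a black line at the mean of 3 libraries. Serpina16, Serpina1f and Serpine2 were lowest in the caput, Serpinf2 was seen in the caput, Serpinb12 peaked in the corpus, and the P42 cauda symbol of Serpinb8 sits with the caput.

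Serpina3c, Serpina3n and Serping1 were also called in principal cells as highest in the cauda, and their highest value was in the P42 cauda library in each case. Serpina3n was at 1.45, 0.917 and 0.594 CPM in the caput and 16.6, 1.88 and 1.78 CPM in the cauda. The fibroblast markers summed to 11837 CPM in principal cells of the P42 cauda and to 134 to 1297 CPM in those of the other libraries. Their part in these calls was not tested. Without that library, the log2 fold change of cauda over caput went from 2.19 to 1.72 for Serpina3n and from 2.04 to 1.38 for Serping1, both still called. Serpina3c did not pass the filter on low counts then. Without P56 replicate 1, the call of Serping1 was lost, at 2.41.

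Summed over all cells of a library, 12 of 27 tested members were called between segments, against 24.8% of all genes. Of these 9 were highest in the cauda (6.07% of all genes), 2 in the corpus (7.27%) and 1 in the caput (11.5%). Without the P42 cauda library Serpina3c was highest in the corpus (cauda over corpus -0.76, and 0.29 with it), and Serpina3m did not pass the filter. In such sums, fewer cells of a type and less RNA per cell cannot be told apart. The median log2 fold change of cauda over caput was 1.76 over the 27 members tested, Serpina3m among them, and 0.02 over all genes. The P42 cauda library enters these medians, which were not worked out without it. With TMM factors set to 1 the median gene moved by -0.24, and the calls of Serpina3c and Serping1 were lost. Without P56 replicate 1, 2 members were called, Serpina16 and Serpinf2 (3.64% of all genes), without P56 replicate 2, 5 (7.07%), and without the P42 cauda library, 14 (35.1%). Without the pool as a block, 7 were called (18.2%). Serpina16 (log2 fold change of cauda over caput 5.95 ± 0.52), Serpina1f (2.82 ± 0.45), Serpine2 (5.28 ± 0.72) and Serpinf2 (-7.93 ± 0.71) kept the direction seen in principal cells. Serpina3f and Serpina3m were called in these sums and not in principal cells. Serpina3f was at 0.745, 0.671 and 0.762 CPM in the caput and 2.7, 2.24 and 2.41 CPM in the cauda. Serpina3m was above 1 CPM in the P42 corpus and P42 cauda libraries only, at 1.08 and 3.45 CPM.

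The classes of cells differed in which Serpin genes they held. Each class was compared with the mean of the other classes within libraries, and 21 members passed the filter, each of them called higher in at least 1 class, where 50.4% of all genes tested were. Since principal cell markers were read in every class, a level in a class is not by itself read as expression there. The 9 libraries came from 3 pools, each of which gave all 3 segments. Libraries of the same pool may thus not be independent, and the adjusted p values between classes may be too low. An SD over 9 libraries also spans segments and ages.

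Principal cells were higher in 3 members, where 3.82% of all genes were. These were Serpina1f (log2 fold change 1.37 ± 0.14, adjusted p = 2.12e-12), Serpina16 (log2 fold change 1.31 ± 0.15, adjusted p = 3.07e-10) and Serpinf2 (log2 fold change 1.15 ± 0.19, adjusted p = 1.79e-06). The call of Serpina16 was lost without the library as a block, with TMM factors set to 1 (0.94) and without the P42 pool (0.92). The call of Serpinf2 was lost with DESeq2 (0.46), without the library as a block (0.99) and with TMM factors set to 1 (0.86).

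Clear and narrow cells, which acidify the lumen, were higher in 4 members, where 6.61% of all genes were. Serpinb6b was at 814 ± 277 CPM (SD, n = 9 libraries) in them and at 25.3 ± 7.01 CPM in principal cells (log2 fold change 3.99 ± 0.12, adjusted p = 3.18e-39). Serpinb9, an inhibitor of granzyme B, was at 548 ± 119 CPM in them and at 20.8 ± 7.08 CPM in principal cells (log2 fold change 3.68 ± 0.12, adjusted p = 4.87e-38). The genes are next to each other among the members on chromosome 13, Serpinb6b at chr13:32965209-32979067 and Serpinb9 at chr13:33003250-33017957. Serpinb1b was also higher in clear and narrow cells (log2 fold change 2.93 ± 0.20, adjusted p = 4.46e-20), and so was Serpina3f.

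Along the duct, Serpinb6b in clear and narrow cells was at 598, 486 and 494 CPM in caput libraries, 784, 693 and 968 CPM in corpus libraries and 891, 1232 and 1184 CPM in cauda libraries. Every cauda library was above every caput library, and Serpinb6b was called between segments in this class. Serpinb9 was at 756, 494 and 583 CPM in caput libraries, 663, 368 and 452 CPM in corpus libraries and 623, 470.3 and 525 CPM in cauda libraries, with the segments overlapping, and was not called. In this class 8 of 15 tested members were called, where 13.4% of all genes were. Without P56 replicate 1, 5 were called (7.77% of all genes).

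Basal cells were higher in 3 members, where 5.84% of all genes were. Serpinb5 (maspin), a clade B member that does not inhibit proteases, was at 198, 115 and 169 CPM in caput libraries, 175, 89 and 108 CPM in corpus libraries and 91.4, 152 and 140.3 CPM in cauda libraries in basal cells, and over all basal libraries at 138 ± 39 CPM (SD, n = 9), against 7.11 ± 3.21 CPM in principal cells (log2 fold change 3.91 ± 0.15, adjusted p = 5.72e-33). The segments overlapped, and it was not called between them in basal cells. Serpina3n and Serpina3f were the other members higher in basal cells.

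**Figure D2:**
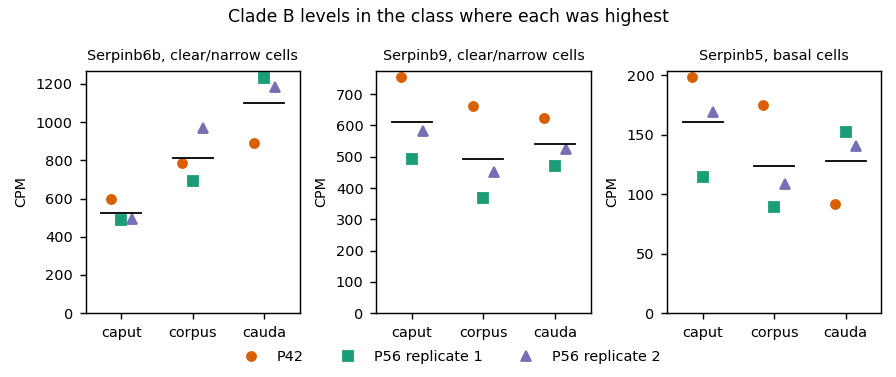
CPM of 3 clade B genes (y axis) by segment (x axis) in clear/narrow or basal cells, with 1 symbol per library and a black line at the mean of 3 libraries. All cauda symbols of Serpinb6b sit above its caput symbols, whereas the segments overlap for Serpinb9 and Serpinb5.

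Fibroblasts were higher in 9 members, where 8.17% of all genes were. Serping1, the C1 inhibitor that restrains complement and kallikrein, was at 2457, 794 and 748 CPM in caput libraries, 2927, 1394 and 1152 CPM in corpus libraries and 2719, 1014 and 523 CPM in cauda libraries (log2 fold change 4.40 ± 0.15, adjusted p = 8.39e-36). Serpinf1 (PEDF), a secreted protein that does not inhibit proteases, was at 702, 210.2 and 177 CPM in caput libraries, 941, 275 and 198 CPM in corpus libraries and 1196, 232 and 108 CPM in cauda libraries (log2 fold change 4.62 ± 0.15, adjusted p = 8.12e-37). Serpinh1 (HSP47), the chaperone of collagen, was at 675, 176 and 125 CPM in caput libraries, 1087, 326 and 226 CPM in corpus libraries and 1243, 238 and 93.8 CPM in cauda libraries (log2 fold change 2.97 ± 0.16, adjusted p = 3.09e-25). In each segment the P42 library had the highest level of all 3 genes, and the fibroblast markers in these cells were also highest at P42 (27549.7 to 89955 CPM at P42, 5619 to 14701 CPM at P56). Age was not tested within fibroblasts.

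Serpina3c, Serpina3n, Serpinb1a, Serpinb6a and Serpine2 were also higher in fibroblasts. Serpine2 was at 449.7, 759.7 and 1060.5 CPM in cauda fibroblasts and 235, 64.2 and 63.5 CPM in caput fibroblasts. Its level in cauda fibroblasts was 61.1% to 97.5% of that in principal cells of the same library, above the share of the principal marker list (12.8% to 84.4%) in 3 of 3 libraries. In basal cells of the cauda its share was 57.2% to 78.9% and likewise above that of the list (42.9% to 52.3%) in 3 of 3 libraries, and it was above the list in 2 of 3 in clear/narrow cells and in macrophages. For Serpina16 the share was below that of the marker list in 6 of 6 corpus and cauda libraries in fibroblasts, in macrophages, in basal cells and in clear/narrow cells.

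Among immune and vascular cells, 1 member was higher in macrophages/monocytes, 3 in endothelial cells and 4 in halo/T cells, where 7.13%, 7.73% and 3.48% of all genes were. Serpinb8 was the one higher in macrophages/monocytes (log2 fold change 3.71 ± 0.35, adjusted p = 2.35e-14), at 16.5, 3.52 and 8.87 CPM in caput libraries, 27.2, 15.1 and 10.3 CPM in corpus libraries and 67.3, 9.13 and 3.73 CPM in cauda libraries. Serpinb1a, an inhibitor of neutrophil elastase, was higher in endothelial cells (log2 fold change 2.43 ± 0.40, adjusted p = 1.43e-06), halo/T cells and fibroblasts. The others higher in endothelial cells were Serpine2 (log2 fold change 1.18 ± 0.36, adjusted p = 0.0115) and Serpinh1 (1.19 ± 0.23, adjusted p = 5.96e-05). In these cells Serpine2 was at 154, 57.1 and 20.5 CPM in caput libraries and 389, 107 and 43.5 CPM in corpus libraries. Serpina3f, Serpina3g and Serpinb9b were, beside Serpinb1a, higher in halo/T cells, where Serpinb9b had 42 UMIs over the kept cells of all classes. These levels came mainly from the P42 corpus and P42 cauda. Serpina3f was at 34.4 and 36.5 CPM there and at 0 to 8.54 CPM in the P56 libraries. Serpina3g was at 25 and 19.9 CPM there and at 0 to 3.51 CPM at P56. Serpinb1a was at 75.1 and 66.3 CPM and at 0 to 11.5 CPM, and Serpinb9b at 18.8 and 9.95 CPM and at 0 CPM. Ciliated-like cells, of which 2 libraries had enough, were higher in Serpinb12 and Serpinb1b, where 6.79% of all genes were. Serpinb12 had 3 UMIs in these libraries, both of the caput, at 4.6 and 3.08 CPM, where principal cells of the caput had 0 UMIs. Serpina3g and Serpina3i share 6.51% and 8.39% of the 90-base windows at their transcript ends with other Serpina3 genes, so reads may be split among these copies. Serpinb6a overlaps Nqo2 and Ripk1 on the other strand, and the use of strand in counting is not given in the sources used here.

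**Figure D3:**
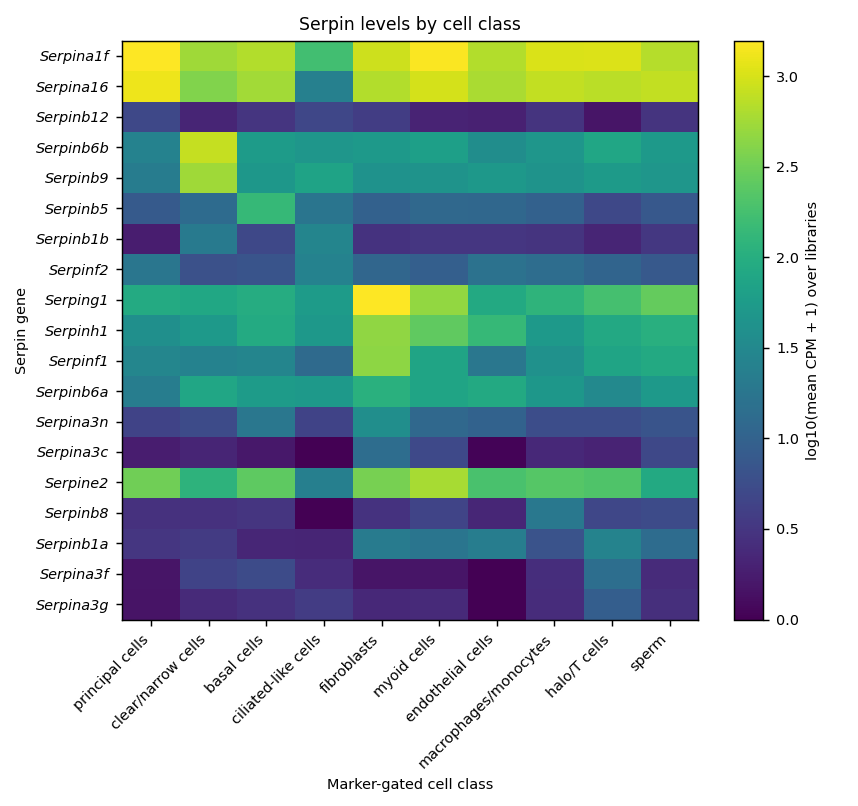
Mean CPM over libraries, as log10(mean CPM + 1) in colour, of 19 Serpin genes (rows) in 10 marker-gated classes (columns). Serpina1f and Serpina16 were read in every class, Serpinb6b and Serpinb9 were highest in clear/narrow cells, Serpinb5 in basal cells, and Serping1, Serpinf1 and Serpinh1 in fibroblasts.

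The segment patterns of 4 members grouped as secreted inhibitors were read again outside principal cells. Serpina16, Serpina1f, Serpine2 and Serpinf2 were called between segments, in the same direction of cauda against caput, in clear/narrow cells, basal cells, fibroblasts and macrophages/monocytes. Called members numbered 7 of 16 in basal cells (15.2% of all genes), 6 of 15 in fibroblasts (11.8%) and 6 of 14 in macrophages/monocytes (12.2%). Median levels of Serpina1f in these 4 classes were 32.9% to 72% of those in principal cells of the same library, beside 33.5% to 77.1% for the summed principal marker list. By library, Serpina1f was above the list in 3 of 9 libraries in clear/narrow cells, 2 of 9 in basal cells, where it reached 93.5%, 1 of 9 in fibroblasts and 3 of 9 in macrophages/monocytes. Serpinf2 was above the list in 2 of 3 caput libraries in fibroblasts and in macrophages/monocytes and in 0 of 3 in clear/narrow and basal cells. In fibroblasts, 10 members were called without the P42 pool (26.5% of all genes), 2 without P56 replicate 1 (3.49%) and 3 without P56 replicate 2 (5.02%). In macrophages/monocytes, 2 were called without P56 replicate 1 (3.43%). Fewer libraries had enough endothelial cells (7), halo/T cells (6) and sperm (6), and with 1 cauda library of endothelial cells (P56 replicate 1) and of sperm (P42, the library that stood apart), that library is assumed to vary like the others. The fits left 2, 1 and 1 residual degrees of freedom, so nothing is rested on them. Called members numbered 4 of 11 in endothelial cells (8.65% of all genes), 4 of 10 in halo/T cells (14.2%) and 6 of 9 in sperm (20.4%). Serpina16, Serpina1f and Serpine2 were among those called in each. In sperm the caput libraries (both P56) and the cauda library (P42) shared neither pool nor age, so no direction of cauda against caput was read there. Serpinf2 was called in endothelial cells, with 82 UMIs in the caput and 0 in the corpus and cauda. Without the replicate block 1 member was called in halo/T cells (3.68% of all genes), and with DESeq2 3 in sperm (1.04%).

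Between ages, the question was which Serpin genes differ from P42 to P56 within a segment. Each such test set 1 P42 library against 2 P56 libraries, so the spread came from the P56 pairs alone and P42 is assumed to vary like them. The P56 pairs of all segments set the same 2 mouse pools against each other, and no pool term was fitted. The pairs may thus not be independent, and the adjusted p values between ages may be too low. Over all cells 4 of 30 tested members were called in the caput (3.26% of all genes), 14 for the corpus (10.7%) and 23 for the cauda (32.4%). All 4 of the caput were lower at P56 (2.44% of all genes). In the corpus 3 were higher (2.8%) and 11 lower (7.89%), and in the cauda 10 were higher (13.1%) and 13 lower (19.4%). Without the corpus library of P56 replicate 1, 9 members were called for the corpus (6.73% of all genes), and without that of replicate 2, 8 (4.48%). For the caput, 7 were called without a filter on low counts (5.34%) and 8 with TMM factors set to 1 (7.45%). The changes are relative to the median gene: with TMM factors set to 1 that median moved by -0.36, -0.64 and -0.76 on the log2 scale for caput, corpus and cauda.

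Serping1, Serpinf1 and Serpinh1 were lower at P56 in every segment. Serping1 was at 202, 44.7 and 68.3 CPM in caput libraries, 521, 82 and 79.2 CPM in corpus libraries and 1459, 125 and 81 CPM in cauda libraries over all cells, and fell by 1.48, 2.04 and 3.05 on the log2 scale in caput, corpus and cauda. Serpinf1 changed by -1.57 ± 0.25 (adjusted p = 0.0213), -2.60 ± 0.25 (adjusted p = 0.00238) and -4.19 ± 0.25 (adjusted p = 4.23e-05), and Serpinh1 by -1.67 ± 0.34 (adjusted p = 0.0387), -2.51 ± 0.34 (adjusted p = 0.00448) and -3.67 ± 0.34 (adjusted p = 0.000133). Every P42 library was above both P56 libraries of its segment for these 3 genes. The fibroblast marker list over all cells moved with them, at 2177, 7747 and 42562 CPM at P42 and between 403 and 1499 CPM at P56, and its part in the fall was not tested.

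**Figure D4:**
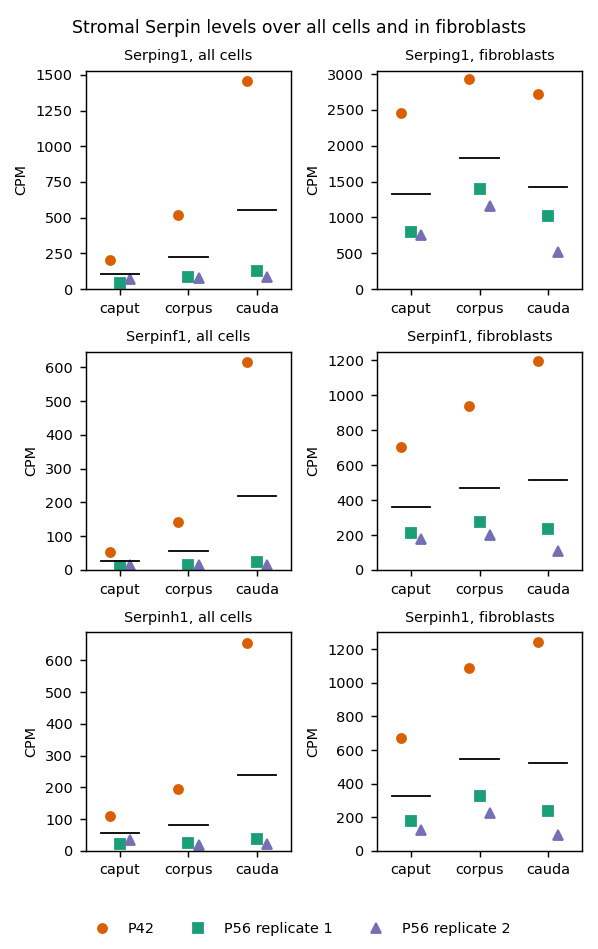
CPM of Serping1, Serpinf1 and Serpinh1 (y axis) by segment (x axis) over all cells (left) and in fibroblasts (right), with 1 symbol per library and a black line at the mean of 3 libraries. The P42 symbol is the highest of each segment in all panels, and over all cells the P42 cauda is far above the rest.

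Over all cells, Serpina16 and Serpina1f were higher at P56 in the corpus and cauda. Serpina16 was at 21.6, 22.3 and 30.5 CPM in caput libraries, 944, 1489.7 and 1709.6 CPM in corpus libraries and 485, 1903 and 2058 CPM in cauda libraries over all cells, and changed by 1.41 ± 0.21 (adjusted p = 0.00599) in the corpus and 2.80 ± 0.23 (adjusted p = 8.25e-05) in the cauda. Serpina1f was at 260, 331 and 409 CPM in caput libraries, 693, 1022 and 1016 CPM in corpus libraries and 677, 2787 and 3312 CPM in cauda libraries, and changed by 1.21 ± 0.19 (adjusted p = 0.00693) and 2.94 ± 0.21 (adjusted p = 5.50e-05). Principal cells, in which both were higher, numbered 832 in the P42 cauda and 2359 and 2228 in the P56 cauda libraries. In the corpus they numbered 1645 at P42 and 2825 and 2634 at P56. Within principal cells of the cauda the changes were 1.53 ± 0.23 and 1.71 ± 0.22. Within principal cells of the corpus neither gene was called between ages. The part of the cell numbers in these changes was not tested. In the corpus, the calls of both were lost with TMM factors set to 1, at 0.76 and 0.56. Serpine2 changed by -1.04 ± 0.29 (adjusted p = 0.0477) in the corpus and by 1.74 ± 0.32 (adjusted p = 0.00314) in the cauda, where the log2 fold change was 0.97 with TMM factors set to 1.

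Among clade B members over all cells, Serpinb6b, Serpinb9, Serpinb1b and Serpinb12 were higher at P56 in the cauda, by 2.26 ± 0.26 (adjusted p = 0.000353), 1.47 ± 0.26 (adjusted p = 0.00262), 2.08 ± 0.45 (adjusted p = 0.00692) and 4.02 ± 0.42 (adjusted p = 0.000231). With TMM factors set to 1 the calls of Serpinb9 and Serpinb1b were lost, at 0.70 and 1.32. Clear/narrow cells, in which Serpinb6b, Serpinb9 and Serpinb1b were higher, numbered 140 in the P42 cauda and 493 and 431 in the P56 cauda libraries. Within them Serpinb9 was at 623, 470.3 and 525 CPM in the cauda, highest at P42, and Serpinb6b at 891, 1232 and 1184 CPM, lowest at P42, and age was not tested in this class. Serpinb1a, Serpinb6a and Serpinb8 were lower at P56 in the cauda over all cells, by -3.78 ± 0.36 (adjusted p = 0.000155), -1.69 ± 0.17 (adjusted p = 0.000187) and -3.25 ± 0.28 (adjusted p = 9.95e-05), and also in the corpus. The P42 cauda held 1152 fibroblasts, in which Serpinb1a and Serpinb6a were higher, and 573 macrophages/monocytes, in which Serpinb8 was higher, whereas the P56 cauda libraries held 292 and 270 fibroblasts and 130 and 260 macrophages/monocytes. The gates of these classes were lower in the P42 cauda (1.17 and 1.97 times the library's mean share, against 3 elsewhere), so these numbers are not on the same footing. The summed level of 10 of 10 macrophage/monocyte markers over all cells was 4164 CPM in the P42 cauda and 135 and 201 CPM in the P56 cauda. The part of these cells in the falls was not tested. Serpinb6a, an inhibitor found in many cells, was at 51.6, 24.9 and 35.2 CPM in caput libraries, 69.9, 21.5 and 21 CPM in corpus libraries and 165, 32.5 and 27.5 CPM in cauda libraries, with the P42 library above both P56 libraries in each segment. Serpinb10 and Serpinb6c, with 118 and 101 UMIs in all, were lower in the cauda, by -2.50 ± 0.83 (adjusted p = 0.0409) and -3.43 ± 0.84 (adjusted p = 0.0121).

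Of the Serpina3 genes, relatives of alpha-1-antichymotrypsin, Serpina3n was lower at P56 in the corpus (-2.65 ± 0.22 (adjusted p = 0.0016)) and cauda (-2.12 ± 0.21 (adjusted p = 0.000162)), as were Serpina3c and Serpina3g. The part of the fibroblasts, in which Serpina3c and Serpina3n were higher, was not tested. Serpina3n was at 5.61, 1.79 and 2.7 CPM in caput libraries, 24.3, 2.54 and 2.38 CPM in corpus libraries and 41.4, 6.15 and 4.99 CPM in cauda libraries over all cells, and the P42 library was highest in each segment. Serpina3i was higher at P56 in the cauda (2.77 ± 0.57 (adjusted p = 0.00546)), at 0.27, 1.09 and 1.11 CPM. Serpina7, with 121 UMIs in all, was at 0, 0.392 and 0.418 CPM in the cauda and was called higher there.

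Restricted to principal cells, 0, 3 and 15 of 24 tested members were called between ages for caput, corpus and cauda, where 0.84%, 3.71% and 17.8% of all genes were. In the cauda 5 were higher (7.25%) and 10 lower (10.6%), and in the corpus all 3 were lower (2.53%). For the corpus, 6 were called without a filter on low counts (4.34% of all genes) and 8 with TMM factors set to 1 (10.5%). DESeq2 also called 0 members in the caput, and 6 of them had an unadjusted p under 0.05 by edgeR. In the cauda, Serpina16 changed by 1.53 ± 0.23 (adjusted p = 0.00126) and Serpina1f by 1.71 ± 0.22 (adjusted p = 0.000573), and with TMM factors set to 1 by 0.71 and 0.89, which lost both calls. Serpinb5 and Serpinb12 were also higher at P56 in cauda principal cells, by 2.46 ± 0.38 (adjusted p = 0.00151) and 2.51 ± 0.59 (adjusted p = 0.0137). The 3 called in the corpus were Serpinf1, Serping1 and Serpinh1. All age differences in the cauda rest on the P42 cauda library. In its principal cells Serping1, Serpinf1 and Serpinh1 stood at 19.1%, 16.1% and 17.7% of their levels in its fibroblasts, beside 13.2% for the fibroblast marker list. In the P42 corpus they stood at 3.75%, 2.74% and 4.49%, beside 2.39%, and in the P42 caput at 1.35%, 1.01% and 3.73%, beside 1.28%. Serpinf1 was thus below the list in the P42 caput. In caput P56 replicate 1, Serping1 (1.94%) and Serpinf1 (1.9%) were below the list (2.12%). In caput P56 replicate 2, Serping1 (2.8%) was below the list (3.03%) and Serpinf1 (3.03%) was level with it.

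**Figure D5:**
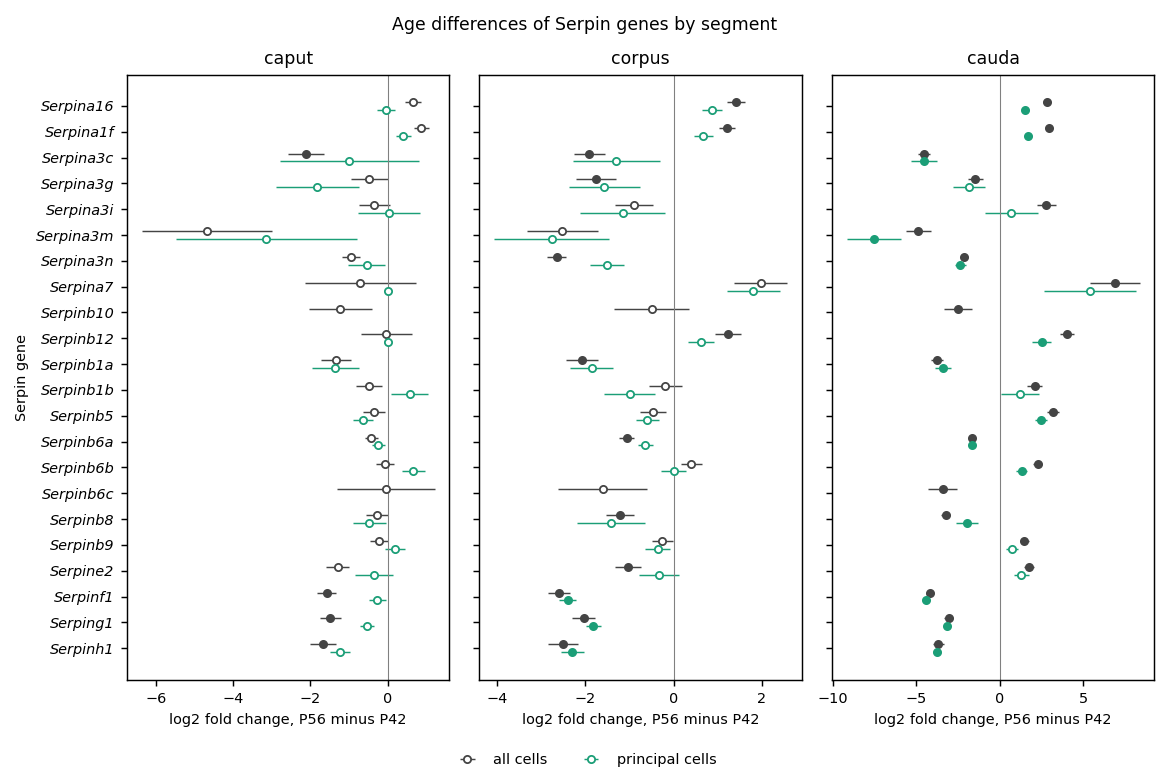
Log2 fold change of P56 over P42 (x axis) of 22 Serpin genes called in at least 1 segment (y axis), over all cells (grey) and in principal cells (green), with bars for the SE and filled symbols for called genes. Filled symbols are 4, 13 and 22 over all cells in caput, corpus and cauda, and the x axes differ between panels.

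Proteases and partners of serpins were compared between segments in the same fit over all cells. Of 41 listed proteases 31 were tested and 6 called, of 15 cofactors and receptors 7 were called, and of 14 collagens and folding partners 7, beside 24.8% of all genes. Plau, the urokinase that Serpine2 inhibits, was lowest in the caput, at 2.34, 1.5 and 1.32 CPM in caput libraries, 15.8, 14.4 and 10.2 CPM in corpus libraries and 20.4, 6.54 and 7.3 CPM in the cauda (adjusted p = 0.00085). The kallikrein Klk1b27 (log2 fold change of cauda over caput 5.28) and the urokinase receptor Plaur (3.43) were highest in the cauda. Lrp2, a receptor that takes up serpin complexes, was higher in the corpus (3.99) and cauda (4.80) than in the caput. Its log2 fold change of cauda over corpus was 0.81 and did not pass the test. The syndecan Sdc1 was higher in the caput, at -2.45 for corpus and -1.78 for cauda over caput.

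Mcpt4, a mast cell protease, was called as highest in the cauda, with 35.5 CPM in the P42 cauda and 0.196 and 0 CPM in the P56 cauda. Col3a1 and Col1a1, which Serpinh1 helps to fold, had 8225 and 9670.1 CPM in the P42 cauda and at most 206 and 142 CPM in the P56 cauda libraries. P4ha2, a subunit of a prolyl hydroxylase, was the 1 of the 7 called that was highest in the caput, at 318, 315 and 337 CPM. Without the P42 cauda library 33 genes of the 3 lists were called (35.1% of all genes), against 20 with it (24.8%).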

How the data were processed

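Single cells of 9 epididymis libraries were profiled with the GEXSCOPE microwell system. The authors mapped reads with STAR 2.7.3a to GRCm38, assigned them to exons of GENCODE M25 and used UMI-tools to extract barcodes and to count UMIs, and they deposited raw counts, all whole numbers, without normalization. Barcodes with 300 to 4000 genes, at most 20000 UMIs, under 50% mitochondrial UMIs and under 5% globin UMIs were kept, and globin genes were left out of totals. Column names carry the segment and a number, which for P56 is the replicate number of the labels; the age of the remaining number, and that a number marks 1 batch over the segments, were read from the study's list of samples. No doublet caller was run, and cells carrying markers of more than 1 class were set aside as mixed. A cell entered a class with at least 3 of its markers at 3 times its library's mean share, and principal cells needed 3 principal markers at 0.5 times the mean with no other class at its mean. Where this left over 50% of a library ungated, which was the P42 cauda (56.2%), the limit was lowered to at most 0.3 of the mean of its top 2% of cells. This changed the limits of fibroblasts (to 1.17) and of macrophages/monocytes (to 1.97) in that library and no others. These limits were set after looking at marker counts, not at Serpin levels.

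UMIs were summed per library and class (at least 20 cells) and tested with the quasi-likelihood test of edgeR 4.0.16 in R 4.3.3, with filterByExpr, TMM and Benjamini-Hochberg adjustment over all genes tested. For segments, an F test was used with the mouse pool as a blocking term, because each pool gave all 3 segments. Deviations from segment means correlated at 0.177 to 0.748 within pools over all cells (9 pairs) and at 0.0961 to 0.592 in principal cells. Between pools (18 pairs) they correlated at -0.69 to 0.558 and at -0.54 to 0.383, so the ranges overlapped. Ages were compared without a block, and classes with the library as a block. Calls required an adjusted p below 0.05 together with 1 or more on the log2 scale. The spread between pools may include technical spread. DESeq2 1.42.0 and the other alternatives are in the closing section. The procedures were run on simulated counts, drawn independently with the same dispersion for all genes and without a pool effect. Correlation within pools was thus not covered by the simulation. Leaving out the P42 cauda library, and the pool as a block for the age difference between segments, were chosen after seeing the data. Positions came from GENCODE M21 and promoters from RefSeq (GRCm38.p6).

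Genes were named where they reached a mean of 20 CPM in a segment, or in a class with 50 UMIs, or were called between segments or ages. Of the target and partner lists, the 3 called genes with the largest fold in each list were named. A selected member is not reported here and not drawn in the figures, but enters the fits and the counts over members. Members and lists were chosen with earlier results of these data known.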

Additional observations from a re-analysis of the deposited data

Results flagged for a closer look

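The difference between P42 and P56 itself differed between segments for 15 of 30 tested members over all cells (edgeR F test of the interaction, adjusted p under 0.05 and a difference of at least 1, 13.9% of all genes). The largest difference between 2 segments' log2 fold changes was 4.06 for Serpinb12, 3.67 for Serpina3i, 3.65 for Serpinb5, 3.04 for Serpine2, 2.98 for Serpinb8, 2.64 for Serpina3c, 2.62 for Serpinf1 and 2.57 for Serpinb1b. It was 2.44 for Serpinb1a, 2.33 for Serpinb6b, 2.15 for Serpina16, 2.06 for Serpina1f, 1.72 for Serpinb9, 1.70 for Serpina3n and 1.27 for Serpinb6a. Among these, Serpinb5 was at 5.01, 29.3 and 24.1 CPM in the cauda, where the P42 library was the lowest, and at 30.4, 12.5 and 24.9 CPM in the caput, where it was the highest. Basal cells, in which Serpinb5 was higher, numbered 72 in the P42 cauda and 435 and 308 in the P56 cauda libraries, and within them it was at 91.4, 152 and 140.3 CPM. The differences of Serpinb12 and Serpina3i rest on few UMIs. Serpinb12 made up 0.0126%, 0.0187% and 0.00979% of Serpin UMIs in caput libraries and 0.00675% in the P42 cauda. Serpina3i made up 0.00563% in the P42 cauda. With the pool as a blocking term, 18 members differed, all 15 among them, where 21.3% of all genes did. Without the cauda library of P56 replicate 2, 8 members differed in this way (6.76% of all genes). The P42 cauda library, whose fibroblast markers stood apart, enters every such difference that involves the cauda, and the part of that library and of its cell numbers was not tested.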

How the results depend on the processing

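Without the replicate block, called members fell to 7 between segments over all cells (18.2% of all genes) and 7 in principal cells (32.4%). They fell to 5 in clear/narrow cells (9.52%), 3 in fibroblasts (4.08%), 3 in macrophages/monocytes (5.8%) and 1 in halo/T cells (3.68%). Basal cells had 5 (11.4%), endothelial cells 3 (4.71%) and sperm 7 (25.2%). Called partner genes fell to 11 (18.2% of all genes). A replicate block for the age difference between segments gave 18 members (21.3%). Without a filter on low counts, members called between ages were 7 in the caput over all cells (5.34% of all genes). In principal cells of caput and corpus they were 1 (2.07%) and 6 (4.34%). With TMM factors set to 1 these 3 counts were 8, 1 and 8 (7.45%, 3.94% and 10.5% of all genes). Leaving out pools or libraries, the P42 cauda alone included (chosen after seeing the data), gave the following counts, with the share of all genes called in brackets. Between segments there were 2 to 14 members over all cells (3.64% to 40.1%), 6 to 13 in principal cells (20.5% to 42.9%) and 5 to 7 in clear/narrow cells (7.77% to 19.7%). Basal cells had 6 to 9 (7.02% to 21.2%), fibroblasts 2 to 10 (3.49% to 26.5%), macrophages/monocytes 2 to 8 (3.43% to 30.3%) and endothelial cells 4 (8.24% to 8.65%). The age difference between segments was called for 8 to 17 (6.76% to 16.7%). Between classes 17 to 22 members were called, with no share worked out. For ages over all cells, leaving out a P56 library gave 3 (caput, 3.48% to 5.46%), 8 to 9 (corpus, 4.48% to 6.73%) and 21 to 22 (cauda, 26.9% to 28.5%) members. In principal cells these were 0 (0.206% to 0.525%), 4 (2.36% to 3.89%) and 14 to 15 (15.9% to 16.9%). Partner genes came to 33 without the P42 cauda (35.1% of all genes, against 24.8% with it). For halo/T cells and sperm no fit without a pool could be made, nor for endothelial cells without P56 replicate 1. DESeq2 called 3 members in sperm (1.04% of all genes). Among the members selected for description, 3 log2 differences over all cells that were not called reversed when a pool or library was left out. Reversals among partner genes were not counted. Serpina3i, caput over cauda, ran from -0.11 (without the P42 cauda; -0.05 without the P42 pool) to 1.10, Serpinb5, cauda over corpus, from -0.10 (without P56 replicate 1) to 1.61, and Serpinb8, cauda over corpus, from -0.050 (without the P42 cauda) to 1.52. The causes were not tested. Of the recomputed counts 80 stayed within 1.5 times the main count and 26 did not. Low counts limit Serpina3m, Serpina7, Serpinb6c and Serpinb10, and also Serpinb12 in the caput and P42 cauda and Serpina3i in the P42 cauda.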

Other observations

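Myoid cells left 0 residual degrees of freedom for a test between segments, and ciliated-like cells were numerous enough in the caput alone, so their values are given without a test. In myoid cells, the contractile cells around the duct, Serpine2 was at 175.5 CPM in the P42 caput, 447 CPM in the P42 corpus and 574, 847 and 947 CPM in the 3 cauda libraries (P42, P56 replicates 1 and 2), beside 735, 961 and 1088 CPM in principal cells of these cauda libraries. The principal marker list in these cauda myoid cells stood at 28%, 86.5% and 88.9% of its level in principal cells. The Serpine2 levels are thus not by themselves read as expression in myoid cells. In ciliated-like cells of the caput Serpinb1b was at 27.6 and 27.7 CPM in the 2 libraries with at least 20 such cells.

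The make-up of Serpin RNA differed between libraries. Serpina1f made up 23.1%, 48.5% and 45.6% of Serpin UMIs in the caput, and Serpina16 made up 31.7%, 52.3% and 54.9% in the corpus. Serping1 made up 30.4% in the P42 cauda and 2.08% and 1.19% in the P56 cauda libraries.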
